A study of Mus musculus with 9 samples.

Results

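The 44 genes described here encode NRF2, its inhibitor KEAP1 and 42 other proteins that are commonly linked to NRF2. These are detoxification and redox enzymes, transporters and the stress-induced growth inhibitor OSGIN1. They were taken by symbol from the 55341 rows of the count tables. The list was chosen with earlier results of these data known, so its shares beside those of all genes are descriptive only. All 44 were present, and all 44 were among the 16250 genes that passed the filter on low counts. RNA was sequenced from small intestinal crypts of male C57BL/6 mice aged 8 to 12 weeks, in a series on loss of PCGF6, a subunit of a Polycomb repressive complex, in the adult intestinal epithelium. The AhCre line gave 2 Pcgf6 wild-type (WT) and 2 Pcgf6 KO libraries, and the Villin CreERT2 line 3 Pcgf6 WT and 2 Pcgf6 KO libraries. WT and KO mice of the AhCre line received beta-naphthoflavone (BNF), and those of the Villin CreERT2 line received tamoxifen (TAM), per the sample titles. AhCre places Cre under a Cyp1a1 promoter that BNF switches on, and Villin CreERT2 is a tamoxifen-activated Cre under a villin promoter, which is active throughout the intestinal epithelium. The titles give 15 days after the agent, whereas a description line and the design text give 7 days, and the description of the Villin samples names BNF. The labels do not say whether each library came from a separate mouse, so the p-values measure the spread between these libraries.

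NRF2, encoded by Nfe2l2, is a transcription factor that KEAP1 holds in the cytoplasm and directs to degradation. When electrophiles or oxidants modify KEAP1, NRF2 accumulates, pairs with small MAF proteins and binds antioxidant response elements near its target genes. Those targets supply NADPH, make and recycle glutathione, reduce quinones, carbonyls and peroxides, conjugate electrophiles to glutathione or glucuronic acid, and export the conjugates. The intestinal epithelium meets dietary electrophiles and expresses many of them. BNF itself is a ligand of the aryl hydrocarbon receptor, and that receptor shares several of these target genes, Nqo1 among them.

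The antioxidant response element was searched as TGACNNNGC and the xenobiotic response element of the aryl hydrocarbon receptor as GCGTG, on both strands, in the 300 bases from 250 before to 50 after each RefSeq start site (build GRCm38.p6). The table held a promoter for 38 of the 44 genes. At least 1 TGACNNNGC was found for 13 of these 38 genes (34.2%), beside 14.0% of all 27025 genes in the table. At least 1 GCGTG was found for 17 of 38 genes (44.7%), beside 35.2% of all genes. These shares describe letters in a window and not sites that are bound. The following 29-base windows are a selection from the 13 genes that carry the element. Windows of Pgd, Txnrd1, Srxn1, Mgst1, Abcc2 and Abcc4, which also carry it, are not shown. They are read 5′ to 3′ on the strand of the match, with the element in capitals.
Me1, chr9:86695902-86695930, minus strand: gatgccgccgTGACTCAGCgcttctcgcg
Prdx1, chr4:116685456-116685484, minus strand: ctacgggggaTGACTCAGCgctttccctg
Ugdh, chr5:65435956-65435984, minus strand: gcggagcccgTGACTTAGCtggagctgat
Ugdh, chr5:65435918-65435946, plus strand: ccgaactgtaTGACCACGCcccttgagga
Gsta3, chr1:21240454-21240482, plus strand: aactcaggcaTGACATTGCatttttcttc
Gclm, chr3:122245413-122245441, minus strand: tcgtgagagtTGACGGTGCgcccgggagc
G6pdx, chrX:74428919-74428947, plus strand: gcgtgtgcttTGACTGAGCtgacccgcct
Nfe2l2, chr2:75704885-75704913, minus strand: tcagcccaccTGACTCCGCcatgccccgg
Me1 and Prdx1 held the same 9 letters of the element. In the lower of the Ugdh windows the element overlaps a GCGTG on the opposite strand.

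The next 3 stretches run from 150 bases before to 10 bases after the start site, on the strand of the gene, and belong to 3 genes whose levels differed strongly between groups, picked after their values were seen. Capitals mark either motif.
Me1, chr9:86695905-86696064, minus strand: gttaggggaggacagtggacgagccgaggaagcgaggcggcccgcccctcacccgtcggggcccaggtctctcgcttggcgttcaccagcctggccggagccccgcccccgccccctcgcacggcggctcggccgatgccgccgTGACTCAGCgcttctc
Cbr3, chr16:93683069-93683228, plus strand: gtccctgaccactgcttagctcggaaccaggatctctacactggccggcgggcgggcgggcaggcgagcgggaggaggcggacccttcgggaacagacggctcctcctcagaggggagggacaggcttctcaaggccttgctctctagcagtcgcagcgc
Akr1b8, chr6:34353996-34354155, plus strand: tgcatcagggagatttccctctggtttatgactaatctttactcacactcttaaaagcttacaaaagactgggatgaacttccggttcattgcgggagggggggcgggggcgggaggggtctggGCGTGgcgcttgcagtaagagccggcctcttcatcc
Me1 carried TGACNNNGC 6 bases before this start site and none at its other listed start. Akr1b8 carried a GCGTG and no TGACNNNGC in the window searched, and Cbr3 carried neither.

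Library totals were 9263993 to 12377921 counts in AhCre and 6455098 to 8339149 in Villin, and 3 counts equal 0.194 to 0.615 CPM (counts scaled to library size with TMM factors). Libraries of 1 group differed more in Villin (chi-square per degree of freedom 43.3 to 63.6) than in AhCre (6.48 and 10.8). Pcgf6 was at 10.1 to 14.1 CPM in AhCre WT, 5.90 to 7.20 in AhCre KO, 9.44 to 12.7 in Villin WT and 2.47 to 3.07 in Villin KO, so each KO group lay below its WT group. Its log2 fold change was −1.99 ± 0.417 (SE) in Villin (adjusted p = 0.022, edgeR). In AhCre it was −0.89 ± 0.397, which did not pass the test. Crypt markers were detected in every group: 14 stem cell markers summed to 723 to 2972 CPM with none at 0, and 12 Paneth cell markers to 2982 to 16750 CPM, with Defa23 at 0 in Villin WT 2. Reads that some of the genes share with near copies may have been split by the counting, which is uncertain here. The share of 50-base words found in other genes was 64.2% for Gsta2, 62.3% for Gstp1, 32.8% for Me1 (shared with pseudogenes), 28.8% for Gstm3, 28.6% each for Akr1c12 and Akr1c13, and 23.1% for Gstm1. It was 3.21% for Akr1b8, 0.437% for Gsta3, 0.0892% for Cbr3 and 0 for Hmox1.

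The genes that the results turn on lie, in GRCm38, at chr9:86581371-86695953 (Me1), chr8:75093621-75100589 (Hmox1), chr16:93683215-93690990 (Cbr3), chr6:34354119-34368463 (Akr1b8), chr12:76792333-76795554 (Gpx2), chr2:75675513-75704641 (Nfe2l2) and chr9:21229730-21239361 (Keap1), all annotated as protein coding in GENCODE M21.

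The transcripts differed widely in level per kilobase of exon, taken as the mean over the 9 libraries. The microsomal glutathione transferase Mgst3 stood highest at 786 CPM per kb, before the peroxidase Prdx1 at 529, the glutathione transferases Gstm3 at 466 and Gsto1 at 411, and the pentose phosphate enzyme Taldo1 at 356. Lowest were the cystine transporter Slc7a11 at 0.0619, the exporter Abcc4 at 0.575 and the haem oxygenase Hmox1 at 2.35 CPM per kb. Nfe2l2 was at 66.2 and Keap1 at 9.30 CPM per kb.

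**Figure D1:**
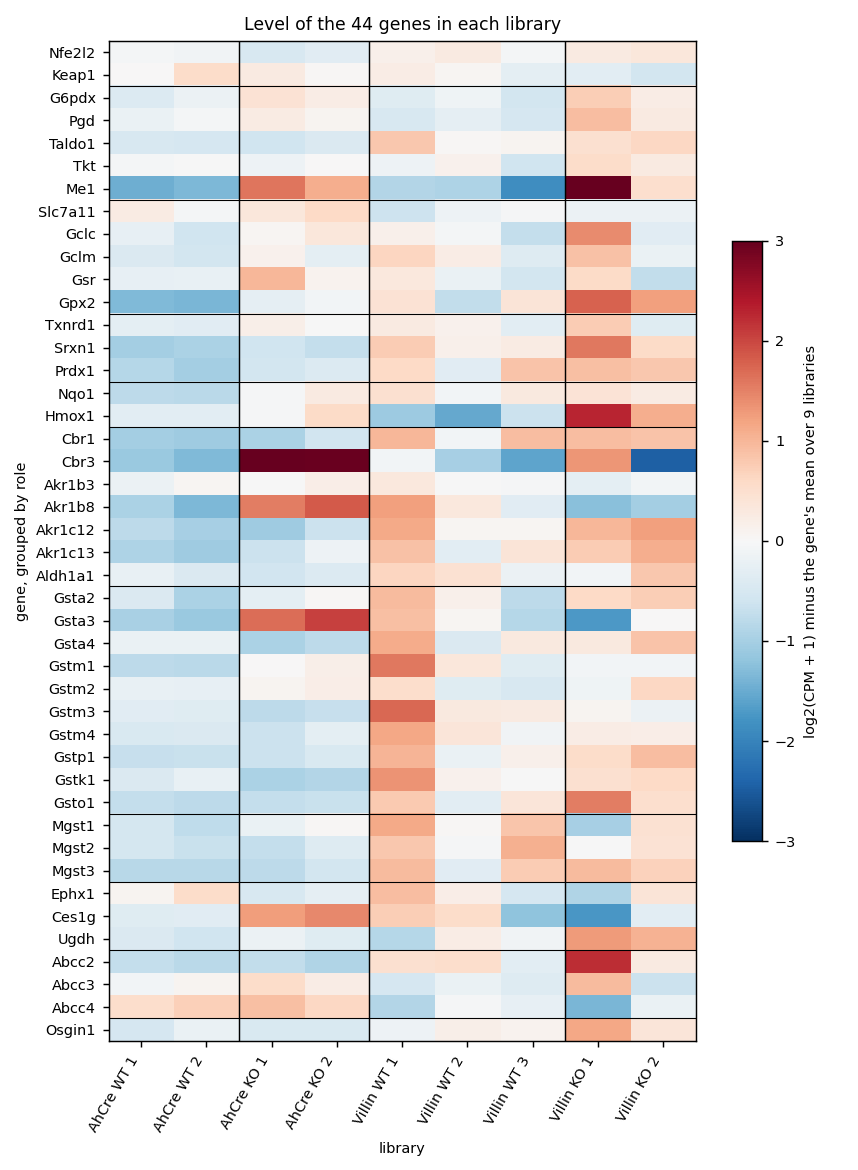
Heat map of the 44 genes (rows, grouped by role) in the 9 libraries (columns). Colour is log2(CPM + 1) minus the gene's mean over the libraries, cut off at 3 in either direction; Me1, Cbr3, Akr1b8 and Gsta3 are high in both AhCre KO libraries, and Me1, Gpx2, Hmox1 and Abcc2 are highest in Villin KO 1.

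The main comparison asked what the loss of Pcgf6 changed on average over both drivers. Me1, Hmox1 and Cbr3 rose on average, by 9.79-fold, 5.34-fold and 7.54-fold, and none of the 44 genes was called lower. The 3 genes called higher are 6.82% of the 44, where 0.972% of all tested genes were called higher and 0.197% lower (quasi-likelihood test of edgeR, p adjusted over all tested genes by Benjamini and Hochberg, threshold 0.05). At an unadjusted p under 0.05, 11 of the 44 were higher (5.37% of all genes) and 0 lower (8.49%). The log2 fold change was positive for 32 of the 44 (40.9% of all genes) and negative for 12 (59.1%), with a median of 0.33 beside −0.09 over all genes. By role, values were positive for all 5 genes grouped under NADPH supply, all 5 glutathione synthesis and recycling genes and all 3 thioredoxin system genes. Of these only the value of Me1 passed the test. The 10 soluble glutathione transferases divided into 6 positive and 4 negative values with a median of 0.13, and none passed. KO libraries of both drivers all lay above their WT libraries for G6pdx, Pgd, Me1, Gpx2, Hmox1 and Ugdh (3.42% of all genes did so), and all below for Gstm3 (4.12%). In the fit on all 9 libraries, Me1 and Hmox1 were also called within Villin but not within AhCre, and Cbr3 within neither driver.

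Neither regulator passed the test in any comparison. Nfe2l2 had 238 and 228 CPM in the AhCre WT and 178 and 195 in the AhCre KO libraries, and 273, 300 and 237 CPM in the Villin WT against 300 and 314 in the Villin KO libraries. The KO libraries were thus lower in AhCre and higher in Villin without overlap, by a log2 fold change of −0.32 ± 0.300 (SE) and 0.19 ± 0.273. In Villin the groups nearly touched, with Villin KO 1 at 300.13 CPM and Villin WT 2 at 300.05 CPM. The difference between the drivers had an adjusted p of 0.556 (edgeR), and 5.03% of all genes showed this pattern of non-overlap. Keap1 had 43.3 and 62.6 CPM in the AhCre WT and 51.7 and 43.7 in the AhCre KO libraries, and 49.6, 44.4 and 34.5 CPM in the Villin WT against 34.2 and 28.8 in the Villin KO libraries. Its groups overlapped in AhCre, and the Villin KO libraries lay just below the lowest WT library. An antisense gene covers 10.9% of the Keap1 exon bases, and the library protocol does not mark the strand. Of 15 further genes for NRF2 partners and turnover, such as the small MAF proteins and the KEAP1 ligase subunit Cul3, 0 were called in any of the 5 comparisons by edgeR. At an unadjusted p under 0.05, 1 of these 15 was higher and 1 lower on average (5.37% and 8.49% of all genes), and 4 were higher and 2 lower in Villin (10.7% and 15.4%). Between the WT groups 2 were higher and 2 lower (13.3% and 16%). In the difference between drivers 0 were higher and 1 lower (9.55% and 6.32% of all genes), and in AhCre 0 were either (1.81% and 1.72%).

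Among the genes grouped under NADPH supply, Me1 stood apart. Me1 is cytosolic malic enzyme, which makes NADPH from malate. Me1 had 13.0 and 14.2 CPM in the AhCre WT and 116 and 81.1 in the AhCre KO libraries, and 19.95, 19.2 and 9.63 CPM in the Villin WT against 378 and 53.4 in the Villin KO libraries. Both KO groups lay wholly above their WT groups, and the 2 Villin KO libraries differed several-fold. The average log2 fold change was 3.29 ± 0.472 (SE, adjusted p = 0.00724), with 3.72 ± 0.618 in Villin (adjusted p = 0.00975) and 2.86 ± 0.694 in AhCre (adjusted p = 0.401, edgeR). Leaving out 1 library gave averages of 2.30 to 3.69, all positive, and the call was lost without Villin WT 1 or either AhCre WT library (adjusted p at most 0.0781). The Villin call was lost without Villin KO 1 or Villin WT 1, and without Villin KO 1 the Villin value was 1.72.

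The pentose phosphate enzymes had smaller values. G6pdx, the first enzyme of that pathway, had 59.99 and 71.4 CPM in the AhCre WT and 109 and 93.8 in the AhCre KO libraries, and 62.4, 72.9 and 54.1 CPM in the Villin WT against 135 and 94.2 in the Villin KO libraries. Pgd, which makes its second NADPH, was at 377 and 419, then 513 and 461, in AhCre WT and KO, and at 308, 360 and 303, then 825 and 518, in Villin WT and KO. KO libraries were higher without overlap for both genes in both drivers, yet the average log2 fold changes of 0.74 ± 0.215 for G6pdx and 0.67 ± 0.225 for Pgd did not pass (adjusted p = 0.142 and 0.198, edgeR). Exons of Ikbkg overlap 13.6% of the G6pdx exon bases on the opposite strand. Taldo1 had an average of 0.08 ± 0.240 and overlapping groups, and Tkt had 0.28 ± 0.230. Of 11 other NADPH and carbon metabolism genes, Idh1 (cytosolic isocitrate dehydrogenase) was higher in Villin KO by 1.21 ± 0.316 (adjusted p = 0.0434) and Rpia (ribose phosphate isomerase) lower by −1.41 ± 0.361 (adjusted p = 0.042), and the other 9 were not called there.

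Hmox1 opens the haem ring and is a classic NRF2 target. It was at 1.94 CPM in both AhCre WT libraries and 2.59 and 4.42 in the AhCre KO libraries, and at 0.719, 0.257 and 1.35 CPM in the Villin WT against 17.004 and 6.79 in the Villin KO libraries. The levels were low in every group, resting on 4, 2 and 7 counts in the Villin WT libraries against 83 and 44 in Villin KO. The groups did not overlap in either driver. Hmox1 rose by 2.42 ± 0.461 on average (adjusted p = 0.027) and by 3.99 ± 0.650 in Villin (adjusted p = 0.00929), whereas the AhCre value of 0.85 ± 0.634 did not pass (adjusted p = 1, edgeR). The difference between the drivers, −3.14 ± 0.915, missed the threshold (adjusted p = 0.171), and the average call was lost without any 1 library other than Villin WT 3 or Villin KO 2 (adjusted p at most 0.175). In Villin the call also went without Villin KO 1 or Villin WT 1, and leaving out each library gave Villin values of 3.21 to 4.64. Hmox1 is also expressed by macrophages, and the 14 leukocyte markers summed to 501 and 2492 CPM in the Villin KO libraries and 79.5 to 2250 CPM in Villin WT, with none at 0. Their part in the Hmox1 value was not tested. Of 9 haem and iron genes other than Hmox1, the iron exporter Slc40a1 fell on average, by −1.82 ± 0.379 (adjusted p = 0.0409), and the other 8 were not called.

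Nqo1 reduces quinones with NADPH and answers both NRF2 and the aryl hydrocarbon receptor. It had 45.4 and 44.1 CPM in the AhCre WT and 76.6 and 95.7 in the AhCre KO libraries, and 110, 74.1 and 96.9 CPM in the Villin WT against 105 and 93.8 in the Villin KO libraries. The AhCre WT libraries were the lowest of the 9, and the Villin groups overlapped. The log2 fold change was 0.94 ± 0.314 in AhCre (adjusted p = 0.874) and 0.09 ± 0.285 in Villin (adjusted p = 0.874 as well, edgeR).

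Gpx2, the glutathione peroxidase of the gut epithelium, had the highest level per kb of the glutathione synthesis and recycling genes. It had 322 and 310 CPM in the AhCre WT and 662 and 759 in the AhCre KO libraries, and 1085, 482 and 1045 CPM in the Villin WT against 2728 and 1876 in the Villin KO libraries. In both drivers every KO library exceeded every WT library. Gpx2 rose by 1.40 ± 0.372 in Villin (adjusted p = 0.0457), while the AhCre value of 1.17 ± 0.419 (adjusted p = 1) and the average of 1.29 ± 0.281 (adjusted p = 0.05, just above the threshold) did not pass in edgeR. With only the Villin libraries fitted, the Villin value of 1.55 ± 0.489 was not called (adjusted p = 0.121, edgeR). The Villin call was lost without any 1 AhCre library, Villin WT 1 or Villin KO 1, with values of 1.12 to 1.64 and adjusted p of 0.033 to 0.20 over the 9 left-out libraries. Gclc and Gclm, the subunits of the ligase that starts glutathione synthesis, and Gsr, which recycles glutathione, were higher without overlap in AhCre KO. In Villin KO all 3 were high in replicate 1 (62.7, 116 and 150 CPM) and within or below the WT range in replicate 2 (17.9, 53.7 and 60.005 CPM). Slc7a11, which imports cystine, had 1 to 20 counts a library and a value of 0.42 ± 0.507 on average.

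The thioredoxin system showed small positive KO values. Prdx1, an abundant peroxidase, had 787 and 703 CPM in the AhCre WT and 966 and 1069 in the AhCre KO libraries, and 2164, 1113 and 2549 CPM in the Villin WT against 2667 and 2483 in the Villin KO libraries. Srxn1, the sulfiredoxin that repairs overoxidised peroxiredoxins, was at 37.5 and 39.1, then 50.5 and 46.2, in AhCre WT and KO, and at 131, 85.3 and 91.1, then 230 and 114, in Villin WT and KO. For both genes the AhCre libraries were all lower than the Villin libraries, whatever the genotype. The average KO effects were 0.43 ± 0.270 for Prdx1, 0.54 ± 0.252 for Srxn1 and 0.33 ± 0.259 for the thioredoxin reductase Txnrd1, and none passed (adjusted p = 0.521, 0.363 and 0.631, edgeR).

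The carbonyl reductases and aldo-keto reductases held the largest AhCre values. Cbr3, a carbonyl reductase, had 5.81 and 4.85 CPM in the AhCre WT and 139 and 114 in the AhCre KO libraries, and 12.8, 6.29 and 3.85 CPM in the Villin WT against 35.4 and 1.70 in the Villin KO libraries. The AhCre groups lay far apart, whereas 1 Villin KO library was the highest of its driver and the other the lowest. The log2 fold change was 4.56 ± 0.954 in AhCre, a 23.7-fold higher level (adjusted p = 0.301), 1.26 ± 0.790 in Villin (adjusted p = 0.33) and 2.91 ± 0.603 on average (adjusted p = 0.0392, edgeR). The average thus joins 2 unlike values. Their difference, AhCre minus Villin, was 3.30 (adjusted p = 0.229, edgeR), and it was called without a low-count filter and by limma-voom with sample weights. The average was called with all 9 libraries or without Villin KO 2, and was lost without any other 1 library, with values of 1.21 to 3.39. Cbr1, the more abundant carbonyl reductase per kb, had 202 and 198 CPM in the AhCre WT and 214 and 278 in the AhCre KO libraries, and 825, 388 and 784 CPM in the Villin WT against 788 and 744 in the Villin KO libraries. The Cbr1 KO effect was 0.25 ± 0.261 on average (adjusted p = 0.739).

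Akr1b8 encodes an aldo-keto reductase that clears lipid aldehydes and retinal. It had 5.04 and 3.58 CPM in the AhCre WT and 33.0 and 41.1 in the AhCre KO libraries, and 26.8, 13.7 and 8.29 CPM in the Villin WT against 3.89 and 4.78 in the Villin KO libraries. The KO libraries were thus all higher in AhCre and all lower in Villin, a pattern of 4.65% of all genes. Akr1b8 fell in Villin KO by −1.90 ± 0.497 (adjusted p = 0.0439) and was 8.56-fold higher in AhCre KO, at 3.10 ± 0.518 (adjusted p = 0.211, edgeR). With only the Villin libraries fitted, the fall of −1.76 ± 0.619 was not called (adjusted p = 0.162, edgeR). The difference between the drivers, AhCre minus Villin, was 4.995 ± 0.717 (adjusted p = 0.0346), and Akr1b8 was the only gene of all tested that was called higher in this difference (0.00615%), while 0.0677% were called lower, none of them among the 44. The difference was positive without each library (4.44 to 5.30), and its call was lost without any 1 AhCre library, Villin WT 2 or Villin KO 1 (adjusted p at most 0.513). The fall in Villin was called with all libraries or without Villin WT 3 and lost without any other, at −2.21 to −1.35.

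Gsta3, Ces1g and Gstm1 had the same course as Akr1b8 in sign but did not pass the test of the difference; they were picked for this after their values were seen. Gsta3, a glutathione transferase, had 11.4 and 10.3 CPM in the AhCre WT and 76.7 and 99.8 in the AhCre KO libraries, and 44.9, 24.5 and 12.5 CPM in the Villin WT against 6.35 and 23.4 in the Villin KO libraries. Ces1g, a carboxylesterase, was at 11.8 and 12.0, then 38.6 and 43.7, in AhCre WT and KO, and at 26.4, 23.1 and 6.17, then 3.89 and 12.3, in Villin WT and KO. Both were higher in AhCre KO without overlap, and their Villin groups overlapped. The AhCre values were 3.03 ± 0.621 for Gsta3 and 1.79 ± 0.603 for Ces1g, and the differences between drivers were 3.89 ± 0.831 and 2.97 ± 0.838 (adjusted p = 0.104 and 0.168, edgeR). At an unadjusted p under 0.05 the difference was higher in AhCre for Cbr3, Akr1b8, Gsta3, Gstm1 and Ces1g (9.55% of all genes) and lower for Hmox1 (6.32%).

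**Figure D2:**
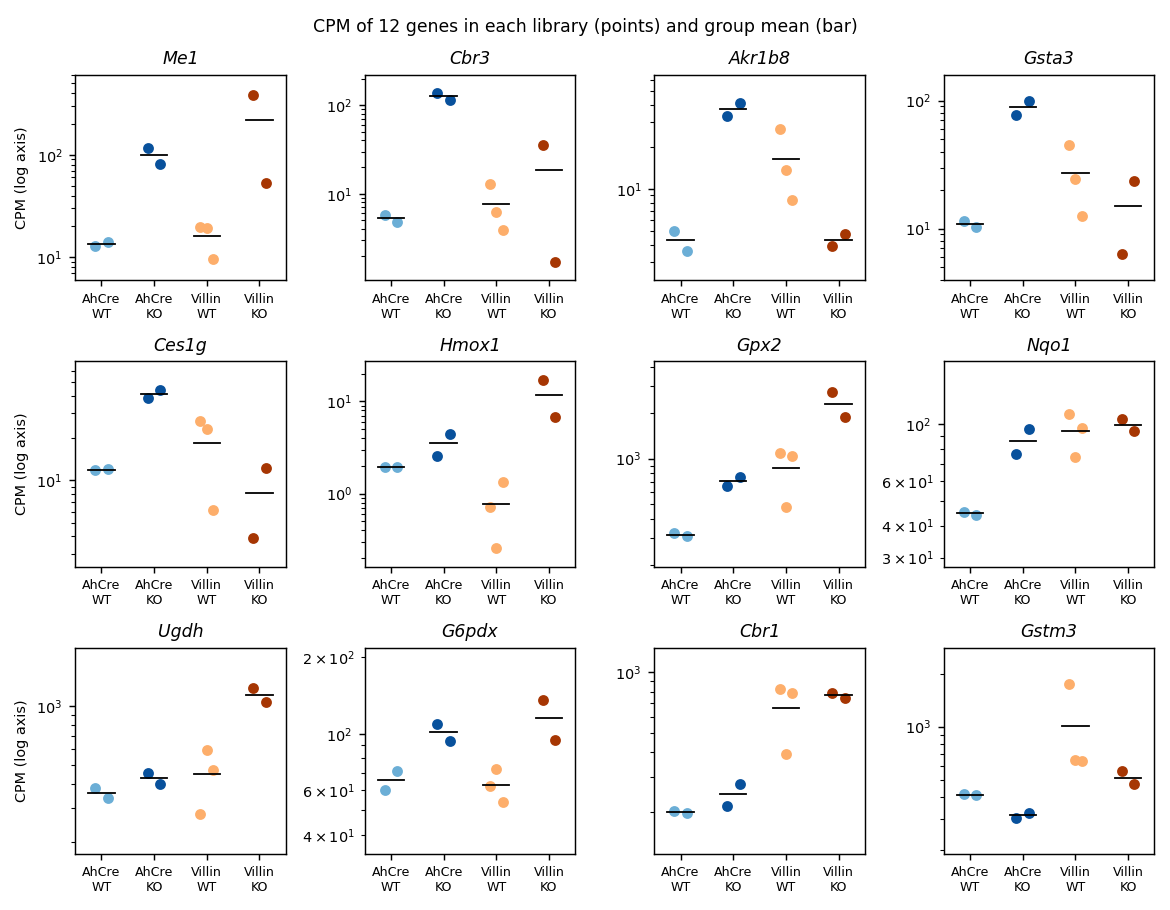
CPM (log axis) of 12 genes in each library (points, coloured by group) with the group mean as a bar. Cbr3 reaches 139 and 114 CPM in AhCre KO, and Akr1b8 is higher than WT in AhCre KO and lower in Villin KO.

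The remaining carbonyl enzymes, glutathione transferases and hydrolases passed the test in none of the KO comparisons fitted on all 9 libraries. Akr1c12 and Akr1c13 had averages of 0.32 ± 0.270 and 0.58 ± 0.266, and the retinal dehydrogenase Aldh1a1 had −0.05 ± 0.263. Gsto1, a soluble glutathione transferase of the omega class, had 433 and 409 CPM in the AhCre WT and 432 and 449 in the AhCre KO libraries, and 1215, 569 and 919 CPM in the Villin WT against 2066 and 999 in the Villin KO libraries. Its AhCre libraries were nearly level and its Villin groups overlapped. Gstm3 was lower in every KO library of both drivers, at 413 and 409 CPM against 303 and 323 in AhCre, and 1744, 644 and 636 against 558 and 469 in Villin. Its average of −0.68 ± 0.317 did not pass (adjusted p = 0.363). Mgst3, a membrane-bound transferase, had 419 and 418 CPM in the AhCre WT and 435 and 509 in the AhCre KO libraries, and 1454, 591 and 1280 CPM in the Villin WT against 1450 and 1203 in the Villin KO libraries, with an average of 0.22 ± 0.278 (adjusted p = 0.797, edgeR). The 3 microsomal transferases had averages between −0.20 and 0.22.

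Gstm1, a mu-class transferase, had 218 and 213 CPM in the AhCre WT and 379 and 426 in the AhCre KO libraries, and 1134, 481 and 294 CPM in the Villin WT against 355 and 357 in the Villin KO libraries. It was higher in AhCre KO without overlap, and the Villin WT libraries spread around the Villin KO level. Its difference between drivers was 1.74 ± 0.685 (adjusted p = 0.254, edgeR). Gsta4, which conjugates lipid peroxidation products, had 142 and 140 CPM in the AhCre WT and 83.7 and 93.9 in the AhCre KO libraries, and 352, 120 and 201 CPM in the Villin WT against 199 and 297 in the Villin KO libraries. Gstk1, a mitochondrial and peroxisomal transferase, had 60.2 and 69.9 CPM in AhCre WT and 41.96 and 44.2 in AhCre KO. Both were lower in AhCre KO without overlap, and the Gsta4 groups overlapped in Villin. The other soluble transferases were Gsta2 at 2.46 to 12.04 CPM over the 9 libraries, Gstm2 at 36.6 to 80.06, Gstm4 at 32.9 to 116 and Gstp1 at 239 to 791, with average values of 0.57 ± 0.389, 0.36 ± 0.266, −0.18 ± 0.264 and 0.23 ± 0.272.

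Mgst1, a membrane-bound transferase, had 360 and 302 CPM in the AhCre WT and 453 and 526 in the AhCre KO libraries, and 1135, 526 and 913 CPM in the Villin WT against 258 and 714 in the Villin KO libraries. The Villin KO libraries thus held the lowest and a middle value of their driver. Mgst2 ranged from 239 to 818 CPM and had an average of −0.20 ± 0.262. Ephx1, the microsomal epoxide hydrolase, had 12.5 and 17.9 CPM in AhCre WT and 8.25 and 9.71 in AhCre KO, with an average of −0.61 ± 0.366 (adjusted p = 0.493, edgeR). Akr1b3, the aldose reductase, stayed within 18.6 to 29.3 CPM in all 9 libraries, with an average of −0.07 ± 0.221.

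Ugdh makes UDP-glucuronic acid, the sugar donor of glucuronidation. It had 379 and 336 CPM in the AhCre WT and 453 and 399 in the AhCre KO libraries, and 280, 594 and 472 CPM in the Villin WT against 1239 and 1044 in the Villin KO libraries. Every KO library lay above the WT libraries of its driver. Ugdh rose in Villin by 1.35 ± 0.339 (adjusted p = 0.0397), and the AhCre value of 0.25 ± 0.377 did not pass (adjusted p = 1, edgeR). With only the Villin libraries fitted, the Villin value of 1.48 ± 0.467 was not called (adjusted p = 0.12, edgeR). The Villin call was lost without any 1 AhCre library, Villin WT 1 or Villin KO 1, at values of 1.10 to 1.71 over the left-out libraries. Among the export pumps, Abcc2 had 98.8 and 93.1 CPM in the AhCre WT and 97.1 and 86.6 in the AhCre KO libraries, and 229, 237 and 130 CPM in the Villin WT against 755 and 196 in the Villin KO libraries. The Villin value of 1.26 ± 0.461 was not called (adjusted p = 0.112) and rested on Villin KO 1, without which it was −0.0026. The exporter Abcc3 showed the same split, at 191 and 62.6 CPM in Villin KO against 69.7 to 86.3 in Villin WT, and Abcc4 ranged from 0.615 to 6.79 CPM over all libraries. Osgin1, a stress-induced growth inhibitor, was at 62.2 to 77.5 CPM in the 4 AhCre libraries, 79.98 to 99.9 in Villin WT and, above these, 201 and 114 in the Villin KO libraries, and its Villin value of 0.78 ± 0.305 was not called (adjusted p = 0.131).

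Within the Villin driver, 4 genes rose (Me1, Hmox1, Gpx2, Ugdh; 9.09% of the 44, 3.33% of all genes) and 1 fell (Akr1b8; 2.27% of the 44, 2.88% of all genes). Villin KO libraries all lay above the WT libraries for 9 of the 44 (14.5% of all genes) and all below for 4 (19.8%). The values of 31 were positive (41.4% of all genes) and those of 13 negative (58.5%), and the median was 0.24 beside −0.18 over all genes. With DESeq2 size factors the median of all genes was −0.08, and the share of higher calls among all calls was 64.5% in place of 53.6%; of the 44, the sign of Gstk1 alone changed.

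Villin KO also differed from Villin WT in markers of cell types. Absorptive enterocyte markers summed to 85290 and 55570 CPM in the Villin KO libraries, above the 26580 to 42340 of Villin WT, and 11 of 20 were called higher. Tuft cell markers summed to 4163 and 677 CPM against 114 to 225, and all 15 were called higher. Il25 was the only one of them at 0 in Villin WT 1 and Villin WT 3. Of 14 crypt base stem cell markers 3 were lower, and of 16 clock genes tested 10 were higher and 1 lower. Proliferation markers summed to 300.3 and 934.5 CPM against 1046 to 1276, with 1 of 15 called lower. Stromal, endothelial and muscle cell markers summed to 219 and 259.5 CPM against 32.97 to 231.5, and 2 of 11 tested, Col1a1 and Col3a1, were called higher. Among them Cdh5 was at 0 in Villin KO 2, Tagln in Villin WT 1, and Lum and Pdgfra in Villin WT 3. The part of these cell types, of proliferation or of the clock in the enzyme values was not tested, and in bulk RNA more cells of a type and more RNA per cell cannot be told apart. Enzymes outside the 44 moved in the same comparison: 9 of 52 other phase 1 and 2 genes were called higher and 0 lower, among them the flavin monooxygenase Fmo5 (1.76 ± 0.293, adjusted p = 0.00975), the carboxylesterase Ces2c (1.59 ± 0.346, adjusted p = 0.0251), the exporter Abcb1a (1.67 ± 0.376, adjusted p = 0.0283) and Cyp4f14 (1.39 ± 0.320, adjusted p = 0.0299). The aryl hydrocarbon receptor target Cyp1a1 was called higher as well (2.39 ± 0.590, adjusted p = 0.0371), with 186 and 29.8 CPM in Villin KO against 12.9 to 31.8 in Villin WT. Its groups overlapped, and only Villin KO 1 lay above the WT libraries. Of the 6 tested genes of the aryl hydrocarbon receptor list, the other 5 were not called in Villin. Of 24 other antioxidant genes only Ggt1, which splits extracellular glutathione, was called (1.49 ± 0.283, adjusted p = 0.0159).

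Within the AhCre driver, 0 of the 44 were called in the fit that shares its spread over all 9 libraries, where 0.00615% of all genes were called higher and 0 lower. At an unadjusted p under 0.05 the same edgeR fit gave 7 genes higher (Me1, Gpx2, Nqo1, Cbr3, Akr1b8, Gsta3, Ces1g; 1.81% of all genes) and 0 lower (1.72%). At an adjusted p under 0.05, DESeq2 called 4 of the 44 higher (0.302% of all genes) and limma-voom with sample weights 9 (3.19%). AhCre KO libraries all lay above the WT libraries for 27 of the 44 (23.4% of all genes) and all below for 5 (25.1%). The values of 32 were positive (49.5% of all genes) and those of 12 negative (50.5%), and the median was 0.32 beside −0.0048 over all genes. With only the 4 AhCre libraries fitted, 12 genes were called higher (27.3%, beside 3.62% of all genes) and 2 lower, Gsta4 and Gstk1 (2.82% of all genes). The 12 were G6pdx, Me1, Gsr, Gpx2, Nqo1, Cbr3, Akr1b8, Akr1c13, Gsta3, Gstm1, Mgst1 and Ces1g. In that fit Cbr3 had 4.58 ± 0.205 (adjusted p = 1.94e-10), Akr1b8 3.11 ± 0.231 (adjusted p = 8.54e-08), Gsta3 3.04 ± 0.199 (adjusted p = 2.43e-08), Me1 2.88 ± 0.199 (adjusted p = 4.27e-08) and Ces1g 1.81 ± 0.187 (adjusted p = 3.87e-06). With only the 5 Villin libraries fitted, Me1 and Hmox1 were called higher (1.64% of all genes) and 0 of 43 tested genes lower (0.256%), and Slc7a11 did not pass the filter there.

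In AhCre KO the 15 tuft cell markers summed to 1196 and 1115 CPM against 218 and 217 in AhCre WT, with 0 called and 15 of 15 higher at an unadjusted p under 0.05 in edgeR. Paneth cell markers summed to 13990 and 15080 CPM against 8527 and 7657, and absorptive enterocyte markers to 12750 and 12400 CPM against 15510 and 14170. Stromal, endothelial and muscle cell markers summed to 90.2 and 91.5 CPM against 189 and 195.5, with none at 0, 0 of 11 called and 1 lower at an unadjusted p under 0.05 (edgeR). Their part in the enzyme values was not tested. Of the 52 other phase 1 and 2 genes 0 were called in AhCre KO, and at an unadjusted p under 0.05 there were 0 higher and 14 lower in edgeR (1.81% and 1.72% of all genes).

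**Figure D3:**
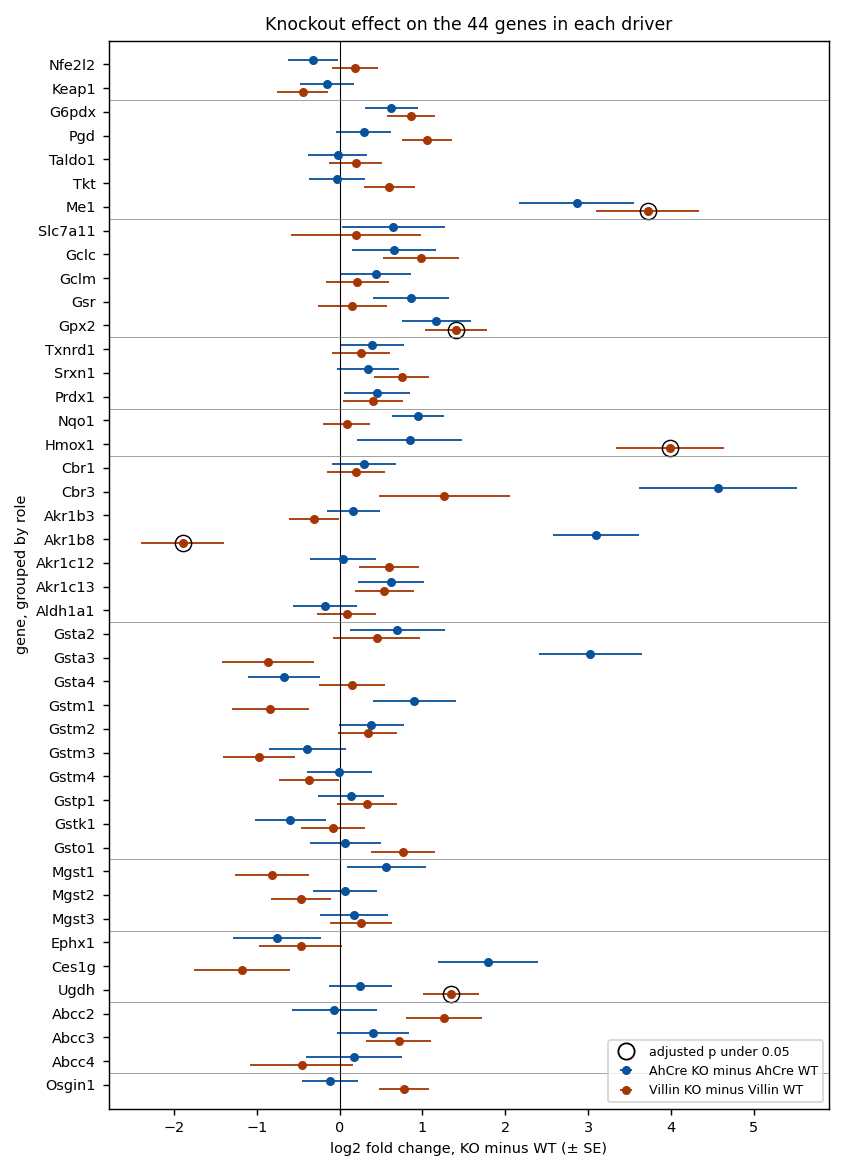
Log2 fold change of KO minus WT with its standard error for the 44 genes in AhCre (blue) and Villin (brown), fitted on all 9 libraries; black rings mark an adjusted p under 0.05. The largest AhCre value is that of Cbr3 (4.56), and Akr1b8 has opposite signs in the drivers.

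The drivers gave the same sign for 29 of the 44 genes (46.1% of all genes), with 24 positive in both (18.5%) and 5 negative in both (27.6%). Another 8 were positive in AhCre and negative in Villin (31.0% of all genes), and 7 the reverse (22.9%). The difference, AhCre minus Villin, was positive for 22 (57.1% of all genes) and negative for 22 (42.9%). With DESeq2 size factors the median of all genes for the difference between drivers was 0.06 in place of 0.18, and 4 of the 44 differences, all small, changed sign.

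**Figure D4:**
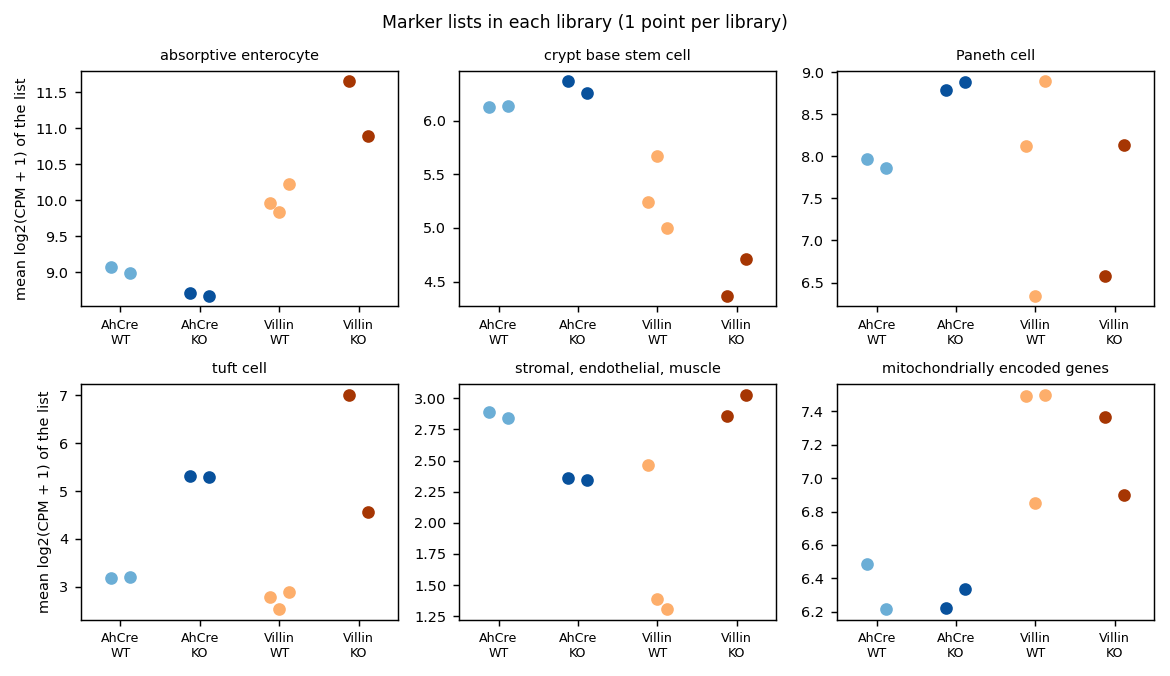
Mean log2(CPM + 1) of 6 marker lists, with 1 point per library and the 4 groups on the horizontal axis. Enterocyte markers are highest in Villin KO and lowest in AhCre, and tuft cell markers are higher in KO than in WT libraries of each driver.

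The last comparison set the WT crypts of the lines side by side. Of the 44 genes 9 were lower in AhCre WT than in Villin WT and 0 higher, where 3.53% of all genes were called lower and 4.04% higher. The 9 were Gpx2, Srxn1, Prdx1, Nqo1, Cbr1, Akr1b8, Akr1c12, Akr1c13 and Mgst3. At an unadjusted p under 0.05 there were 19 lower (16% of all genes) and 1 higher, Abcc4 (13.3%). The median was −0.71 beside −0.07 over all genes, and 35 of the 44 values were negative (52.9% of all genes) and 9 positive (47.1%). All 10 soluble glutathione transferases, all 3 microsomal ones and all 7 carbonyl and aldehyde enzymes were negative. The AhCre WT libraries all lay below the Villin WT libraries for 23 of the 44 (23.8% of all genes) and all above for 4, namely Pgd, Hmox1, Abcc3 and Abcc4 (26.5%).

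The largest falls were those of Akr1b8 (−1.91 ± 0.477, adjusted p = 0.0352) and Cbr1 (−1.73 ± 0.375, adjusted p = 0.0242), whose values by library stand above. Gpx2 fell by −1.46 ± 0.397 (adjusted p = 0.0451), Srxn1 by −1.42 ± 0.357 (adjusted p = 0.0356), Prdx1 by −1.38 ± 0.382 (adjusted p = 0.0472) and Nqo1 by −1.06 ± 0.294 (adjusted p = 0.0474). Akr1c12 and Akr1c13, hydroxysteroid and carbonyl reductases with partly shared reads, were at 103 and 89.0 and at 132 and 118 CPM in AhCre WT, and at 391, 186 and 185 and at 459, 202 and 327 in Villin WT. Their differences were −1.40 ± 0.383 and −1.40 ± 0.377 (adjusted p = 0.0458 and 0.0439), and that of Mgst3 was −1.41 ± 0.394 (adjusted p = 0.0495, edgeR). Nfe2l2 and Keap1 were at −0.21 ± 0.275 and 0.30 ± 0.298, and none of the 5 genes grouped under NADPH supply was called. These calls were close to the threshold and depended on single libraries. Dropping replicate 1, 2 or 3 of the Villin WT group left 0, 16 and 4 of the 44 called lower. All 9 calls were also lost when any AhCre library was dropped, which cuts its group to 1 library. Calls over all genes varied widely between the left-out fits too. The counts therefore cannot show whether the 44 genes were affected more than other genes. With only the 5 WT libraries fitted, Srxn1 and Cbr1 remained called (2.42% of all genes), with 0 higher (4.05%).

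This contrast shares the AhCre WT libraries with the AhCre KO effect and the Villin WT libraries with the Villin KO effect, so the values are not independent. Set side by side, Akr1b8 had −1.91 between the WT groups, 3.10 for AhCre KO and −1.90 for Villin KO, Gpx2 had −1.46, 1.17 and 1.40, Nqo1 had −1.06, 0.94 and 0.09, and Cbr1 had −1.73, 0.30 and 0.20.

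The WT groups differed in the line, the agent and possibly the library batch, and these cannot be told apart. Absorptive enterocyte markers summed to 15510 and 14170 CPM in AhCre WT against 26580 to 42340 in Villin WT, and 6 of 20 were called lower. Crypt base stem cell markers were called higher in 3 of 14, and mitochondrially encoded genes lower in 4 of 11, with 11760 and 9063 CPM against 19800 to 30720. Of 16 clock genes 3 were called higher and 2 lower, and of 11 stromal, endothelial and muscle cell markers Col1a1 and Col3a1 were called higher (summed 189 and 195.5 CPM against 32.97 to 231.5). The AhCre WT libraries held counts for 38835 and 36898 genes and the Villin WT libraries for 23427 to 29750. The part of these in the enzyme values was not tested. Related genes outside the 44 were also lower in AhCre WT: 4 of 24 other antioxidant genes, namely the peroxidases Gpx4 (−1.67 ± 0.419, adjusted p = 0.0356), Gpx1 (−1.52 ± 0.401, adjusted p = 0.0409) and Prdx5 (−1.49 ± 0.410, adjusted p = 0.0465) and the glutaredoxin Glrx (−1.38 ± 0.359, adjusted p = 0.0396). Of 52 other phase 1 and 2 genes 9 were lower and 3 higher, with the aldo-keto reductase Akr1b7 at −2.76 ± 0.508 (adjusted p = 0.0139) and the sulfotransferase Sult1b1 at −2.08 ± 0.406 (adjusted p = 0.0169). The ferritin light chain gene Ftl1 fell by −1.75 ± 0.406 (adjusted p = 0.0297). None of the 6 tested genes of the aryl hydrocarbon receptor list, which leaves out Nqo1, was called between the WT groups, nor was 1 of them under an unadjusted p of 0.05 (edgeR).

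**Figure D5:**
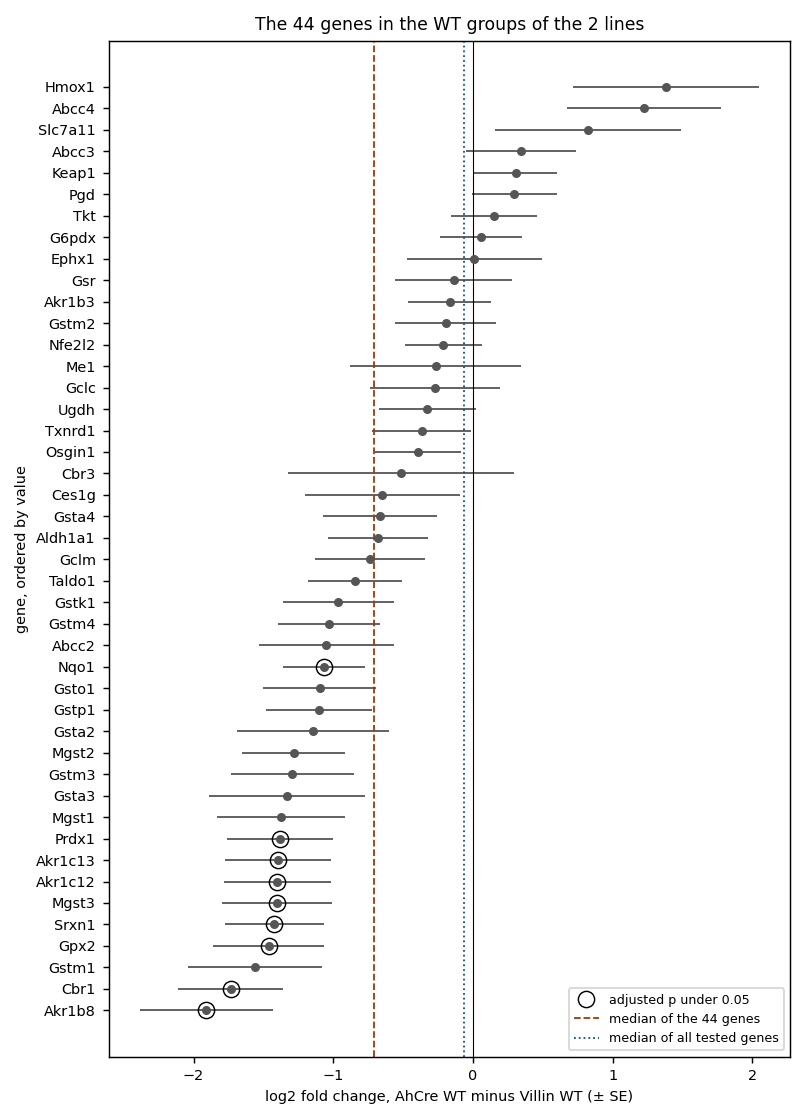
Log2 fold change of AhCre WT minus Villin WT with its standard error for the 44 genes, ordered by value; rings mark an adjusted p under 0.05, the dashed line the median of the 44 genes and the dotted line that of all tested genes. The 9 ringed genes lie between −1.91 and −1.06.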

How the data were processed

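The authors deposited read counts per gene, whole numbers that were not normalized, from Smart-seq2 libraries made from 2 ng of crypt RNA, per the labels' protocols. STAR 2.7, featureCounts and DESeq2 1.20 are named in the submitters' processing notes; the strand setting is not stated. Every row name matched GENCODE M21 (GRCm38). Counts were filtered with filterByExpr, scaled by TMM and fitted in edgeR 4.0.16 (R 4.3.3) with 1 mean per group over all 9 libraries, 5 residual and 7.43 prior degrees of freedom and a biological coefficient of variation of 0.332. The threshold was 0.05 on p adjusted by Benjamini and Hochberg. Standard errors are the log2 fold change divided by the root of F. The procedure was tested on simulated counts that had the same spread per gene in every group. That test cannot speak to the unequal spread of the AhCre and Villin libraries. Alternatives were DESeq2 1.42.0, limma 3.58.1 (voom), other filters and scaling, separate fits, a replicate block and left-out libraries. Named in full were both regulators, every gene called in a comparison and the gene of highest mean CPM in each role, with others where stated; up to 4 called genes were named per further list. The 44 genes, their roles and the further lists were chosen with earlier results of these data known.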

Additional observations from a re-analysis of the deposited data

Results flagged for a closer look

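The KO effect on Akr1b8 differed between the drivers by 4.995 on the log2 scale (AhCre minus Villin, edgeR adjusted p = 0.0346), with every AhCre KO library above and every Villin KO library below the WT libraries of its driver. The test of the difference itself drew attention to this gene.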

How the results depend on the processing

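Counts below are in the order average, Villin, AhCre, difference between drivers and WT groups. The 44 genes gave 3, 4, 0, 1 and 0 calls higher and 0, 1, 0, 0 and 9 lower, and all genes 190, 1009, 1, 12 and 1231 calls. DESeq2 called 5, 7, 4 and 3 of the 44 higher in the KO comparisons and Akr1b8 lower in Villin. It called 1 lower in the difference and 15 lower between WT groups, with 438, 1749, 74, 380 and 2278 calls over all genes. Without a low-count filter 5, 5 and 4 were higher on average, in AhCre and in the difference, and all genes gave 538, 1591, 137, 340 and 2290 calls. Limma-voom with sample weights gave 2 higher and 0 lower in Villin, 9 higher in AhCre, 3 higher in the difference and 20 lower between WT groups, with 138, 911, 144 and 3860 calls over all genes from Villin on. Only the libraries of the comparison gave 2 higher and 0 lower of 259 calls in Villin, 12 higher and 2 lower of 1046 in AhCre, and 2 lower between WT groups. Leaving out Villin WT 2 and Villin KO 1, chosen after seeing the data, gave 2 higher on average, where Hmox1 (adjusted p = 0.0541) and Cbr3 (0.25) lost their calls and Gpx2 (0.011) gained one, 0 lower of 343 in Villin, 5 higher of 123 in AhCre, 2 higher of 113 in the difference, and 1 higher and 18 lower of 5377 between WT groups.

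Deviations of same-numbered libraries from their group means correlated at −0.162 in AhCre and at 0.075 and −0.199 in Villin. In a group of 2 libraries the deviations mirror each other, so these values cannot show whether replicate numbers pair the libraries. A replicate block gave 1 of the 44 higher and 6 genes in all in AhCre, 5 genes in the difference, and 2 lower of 484 between WT groups. With it Ugdh in Villin was not called (1.41, adjusted p = 0.0677). With crossed numbers in AhCre, chosen after seeing the data, the block left Cbr3 on average and Ugdh in Villin uncalled and gave 3 calls over all genes in the difference and 2 lower of 358 between WT groups.

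With each library left out in turn, calls higher among the 44 ranged from 0 to 7 on average, 0 to 12 in Villin, 0 to 4 in AhCre, 0 to 3 in the difference and 0 to 0 between WT groups. Calls lower ranged from 0 to 0 on average, 0 to 1 in Villin, 0 to 0 in AhCre, 0 to 1 in the difference and 0 to 16 between WT groups. Calls over all genes ranged from 2 to 757, 73 to 1949, 1 to 64, 0 to 415 and 8 to 3030. A group cut to 1 library was assumed to vary like the others. Of the single-gene values with an unadjusted p under 0.05, only the Villin value of Abcc2 changed sign, to −0.0026 without Villin KO 1, and it was 1.92 without Villin KO 2; of 1028 combinations of 55 such values with an alternative, 139 lost a call and 116 gained one. The cause of these changes was not tested. Low counts limit Hmox1, Slc7a11 and Abcc4.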
